A study of Mus musculus with 2 samples.

Results

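The 10 integrin genes Itgav, Itgb3, Itgb5, Itgb1, Itgb2, Itgam, Itgax, Itgal, Itga4 and Itga6 were followed by symbol in scRNA-Seq of monocytes on the way to osteoclasts (OCs). They are 10 of the 32544 genes in the count tables, and each symbol matched 1 row in both libraries. Bone marrow-derived monocytes (BMDMs) came from femurs of mice aged 4 to 6 weeks, per the study's methods, whose sex was not given for these libraries, and were collected with trypsin 24 h after induction with M-CSF at 50 ng/ml and RANKL, the cytokine that starts OC differentiation, at 100 ng/ml. The control library is labelled only as control, and whether it carries floxed alleles or Cre was not given; the number of animals behind each library was not given either. The mutant library has the genotype LysM-Cre;Arid1afl/fl, in which a recombinase expressed from the lysozyme M promoter in myeloid cells deletes the floxed exons of Arid1a, which encodes a DNA-binding member of the canonical BAF chromatin remodeler. Both groups received the same cytokines. Each genotype was represented by 1 library, so no test across samples was possible and differences could not be checked against replicates. Values in parentheses are 95% intervals, which cover counting error only and hold for the 2 libraries rather than for the genotypes.

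Integrins are receptors for matrix and for other cells, built as pairs of an α and a β subunit. The pair αvβ3, encoded by Itgav and Itgb3, is the vitronectin and osteopontin receptor through which mature OCs attach to bone and organise their sealing zone. In macrophages and their precursors αv also pairs with β5, while the β2 subunit pairs with αM, αL or αX to form the leukocyte integrins that bind ICAMs and complement. In mouse OC precursors the αvβ5 pair is known to be present before αvβ3 and to be replaced by it.

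A cell was kept with at least 500 genes and at most 10% mitochondrial UMIs. The control library then held 6269 cells and 163618835 UMIs, and the mutant library 5663 cells and 131469887 UMIs. Their median depth was 23978 and 21734 UMIs per cell. Cell barcodes were shared between the libraries in 7 of the kept cells. Macrophage markers were present in both libraries, with Csf1r, the M-CSF receptor, at 256 counts per 1e6 UMIs (CPM) in the control library and 402 CPM in the mutant library, and Cd68 at 469 and 603 CPM. The calcitonin receptor gene Calcr, a marker of mature OCs, had no UMI in either library. Arid1a itself stood at 51.9 CPM (50.8 to 53.0) in control cells and 20.4 CPM (19.7 to 21.2) in mutant cells. The 3′ end that is read lies outside the floxed exons, so transcripts of a recombined allele can still be counted and this is no check of the deletion. The interferon-stimulated list, 12 genes, summed to 1150 CPM in the control library and 4441 CPM in the mutant library.

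To place the integrins along the transition, each cell was thinned to 5000 UMIs and sorted by its UMIs over the 3 OC genes Ctsk, Mmp9 and Dcstamp. Cells with none are called OC-transcript-free, cells with 1 or 2 low, and cells with 3 or more high; 168 control and 351 mutant cells were too shallow to be placed. In the control library 4775 of 6101 cells were free (78.3%), 962 were low (15.8%) and 364 were high (5.97%). In the mutant library 4958 of 5312 cells were free (93.3%), 310 were low (5.84%) and 44 were high (0.828%). The high state of the mutant library thus rests on 44 cells, of which 2 lay in a gate for neutrophil genes, cells that express Mmp9 themselves. The summed neutrophil markers were 4.63 CPM in the high state of the control library and 1218 CPM in that of the mutant library, with all 4 markers counted there, and their part in the mutant values was not tested. Leaving out the gated cells kept every call of the members in the high against free comparison of both libraries.

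The upstream sequences of Itgav, Itgb5 and Itgam are shown because these genes, all with an entry in the promoter table, moved in different directions along the transition, Itgav upward and Itgb5 and Itgam downward. Itgal, which fell further than Itgam, had no entry. Each is the 250 bases before the RefSeq start site in build GRCm38.p6, 5′ to 3′ on the plus strand, and 6 of the 10 members matched the RefSeq promoter table. Capitals mark the letters GAGGAAG, a core of sites for the myeloid factor PU.1, on either strand.
Itgav, chr2:83724147-83724396: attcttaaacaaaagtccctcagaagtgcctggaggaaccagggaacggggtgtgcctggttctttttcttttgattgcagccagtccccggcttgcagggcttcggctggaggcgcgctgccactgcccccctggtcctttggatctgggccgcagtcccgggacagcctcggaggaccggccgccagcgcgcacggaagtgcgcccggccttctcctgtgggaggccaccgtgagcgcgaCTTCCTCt
Itgb5, chr16:33829415-33829664: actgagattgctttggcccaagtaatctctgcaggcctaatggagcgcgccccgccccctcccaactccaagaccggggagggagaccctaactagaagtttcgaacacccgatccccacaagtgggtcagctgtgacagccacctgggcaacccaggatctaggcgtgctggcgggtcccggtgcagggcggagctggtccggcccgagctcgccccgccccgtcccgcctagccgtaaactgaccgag
Itgam, chr7:128062390-128062639: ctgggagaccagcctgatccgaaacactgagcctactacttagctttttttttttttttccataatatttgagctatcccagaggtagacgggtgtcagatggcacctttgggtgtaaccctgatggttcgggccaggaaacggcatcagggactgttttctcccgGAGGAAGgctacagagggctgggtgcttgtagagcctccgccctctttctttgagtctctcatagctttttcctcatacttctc
The match in the Itgav window lay on the minus strand with its first base at position -8 from the start site, and the match in the Itgam window on the plus strand from -84, while the Itgb5 window held none. Of 32851 promoter windows of the same length, 10.6% held these letters on either strand. The letters TGANTCA of an AP-1 site, found in 6.75% of all windows, matched only in the Itgax window among the 6, at -56. Neither CACGTG, the E-box, nor TTTC repeated after a gap of 2 bases, a core of the interferon-stimulated response element, matched in any of the 6 windows on either strand, against 6.02% and 2.98% of all windows.

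The first question was how much of each subunit the cultures held. In this 3′ kit a transcript is read at 1 end, so its UMIs do not grow with its length. How well the 3′ end of each gene is captured and assigned was not checked, so comparisons between genes are of counted UMIs. Over all control cells the order of levels was Itgb2 at 247 CPM, Itgb1 at 245 CPM, Itgam at 133 CPM, Itgav at 105 CPM, Itga6 at 60.3 CPM, Itga4 at 41.7 CPM, Itgb5 at 33.1 CPM, Itgal at 16.2 CPM, Itgax at 1.44 CPM and Itgb3 at 0.098 CPM. The intervals of Itgb2 and Itgb1 overlapped, and all other neighbours in this order were separated by more than their counting error. In the mutant library Itgb5, at 91.3 CPM, stood above Itga6 at 73.7 CPM and Itga4 at 36.6 CPM, and the other members kept their order. Thus Itgb2 and Itgb1 led in both libraries, and β3 was the least counted member in both.

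Itgb3 encodes the subunit that completes the OC integrin αvβ3. It had 16 UMIs in 15 cells of the control library and 62 UMIs in 54 cells of the mutant library, so its transcript was near the limit of detection at this stage. Its level was 0.098 CPM (0.056 to 0.159) for control cells and 0.472 CPM (0.362 to 0.605) in mutant cells, both below the 5 CPM that a gene had to reach on average to be counted as changed. Within the high state 2 UMIs were counted in 364 control cells, and none in 44 mutant cells. With a count of 0 read as up to 3 counts, the mutant level could be up to 2.25 CPM, and its Poisson interval reached 2.76 CPM. Megakaryocytes and platelets carry much β3, and no cell with an Itgb3 UMI held a UMI of Ppbp, Gp9, Gp1bb or Itga2b. These 4 markers had only 129, 1, 0 and 8 UMIs in the control and 7, 0, 0 and 10 UMIs in the mutant library. So few UMIs cannot tell whether such cells were a source of Itgb3. The listed marker Pf4, at 655 and 795 CPM, was left out of this check. Of the Itgb3 UMIs, 3 of 16 and 5 of 62 came from the 3 cells in each library that passed a gate for stromal collagen genes.

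Itgav, the α subunit shared by the vitronectin receptors, was the 1 member at 5 CPM or more that passed a 1.5-fold threshold upward in the high state of both libraries. In the control library it was counted at 90.7 CPM (89.0 to 92.4) in free cells, 133 CPM (129 to 138) in low cells and 203 CPM (195 to 212) in high cells. Mutant cells held 149.8 CPM (148 to 152), 163 CPM (155 to 173) and 232 CPM (206 to 259). The level thus rose along the OC-transcript classes in both, from a higher start in the mutant library. Split by single genes at 5000 UMIs, control cells with a Ctsk, Mmp9 or Dcstamp UMI held 161, 165 and 194 CPM. Control cells without it held 98.2, 95.8 and 101 CPM. Mutant cells with it held 167 CPM (158 to 177), 235 and 221 CPM, against 151, 150 and 151 CPM without. The mutant difference was thus smallest for Ctsk. High over free cells, the log2 ratio was 1.16 (1.10 to 1.23) in the control library and 0.63 (0.46 to 0.79) in the mutant library, a difference of -0.54 (-0.71 to -0.36). Among mutant cells this rise passed 1.5-fold in 6 of 12 alternative settings, with log2 ratios from 0.22 to 0.88, and in the control library in 12 of 12. Cells with at least 1 Itgav UMI at 5000 UMIs went from 35.0% of free to 59.3% of high control cells, and from 49.0% to 54.5% (38.8% to 69.6%) of mutant cells. Without thinning these shares were 79.7% and 92.3% in the control library and 87.2% and 90.9% in the mutant library. In the neutrophil gate, where αv should be scarce, 1 of 17 control cells (5.88%) and 8 of 75 mutant cells (10.7%) had an Itgav UMI; the median depth before thinning was 8616 and 10828 UMIs in these cells and 23875 and 22301 UMIs in free cells.

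Itgb5, the β subunit of the other vitronectin receptor, ran the opposite way. Control cells held 37.4 CPM (36.3 to 38.5) in the free state, 23.1 CPM (21.3 to 25) in the low state and 9.34 CPM (7.64 to 11.3) in the high state. Mutant cells held 93.3 CPM (91.6 to 95), 67.1 CPM (61.6 to 73.1) and 42.0 CPM (31.7 to 54.5). The interval of mutant high cells contained the level of control free cells. The log2 ratio of high over free cells was -2.00 (-2.29 to -1.72) in the control library and -1.15 (-1.56 to -0.77) in the mutant library, a difference of 0.85 (0.38 to 1.32). Both falls passed the threshold in 12 of 12 alternative settings, with log2 ratios from -2.27 to -1.27 in the control library and from -1.98 to -0.69 in the mutant library. With a high state at 5 or more UMIs, which leaves 20 mutant cells, the ratios were -2.27 and -1.98, closer to each other than at 3 or more UMIs.

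**Figure D1:**
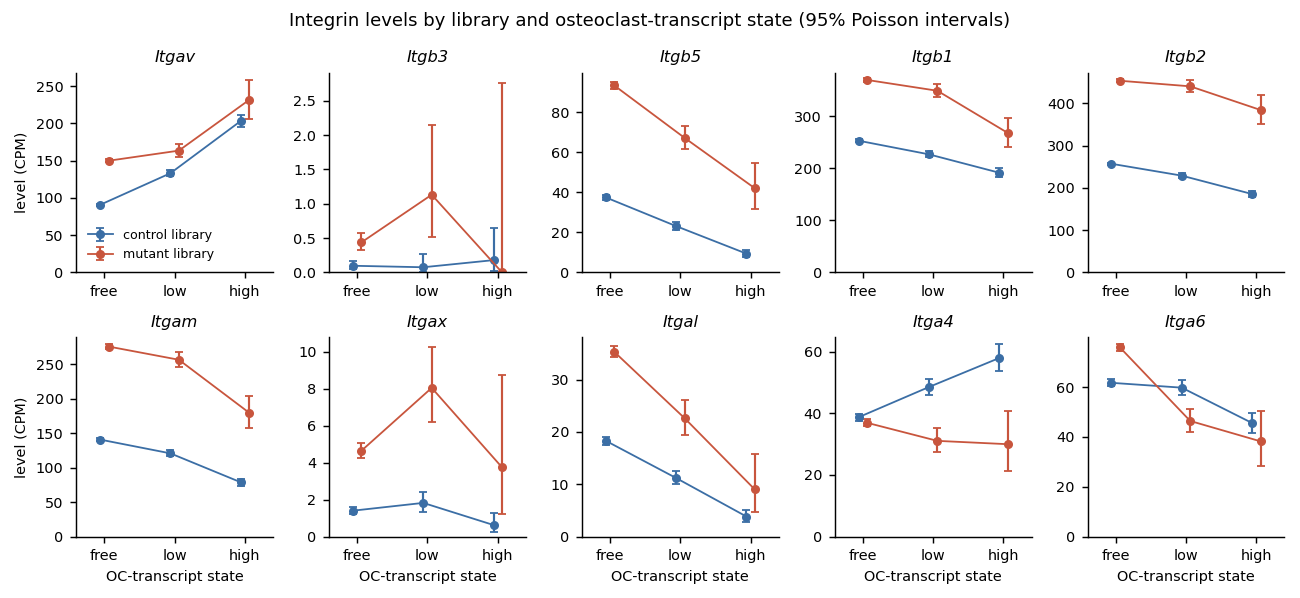
Levels of the 10 integrin genes in CPM (linear axes from 0) in OC-transcript-free, low and high cells of the control and the mutant library. Points are levels from summed UMIs and bars are 95% exact Poisson intervals, which cover counting error only. Itgav climbs from 90.7 to 203 CPM in control cells while Itgb5 falls from 37.4 to 9.34 CPM, and Itgb3 stays near 0.

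With finer classes of OC-transcript UMIs the same genes moved stepwise. In control cells with 0, 1, 2, 3 to 4, 5 to 9 and 10 or more OC-transcript UMIs, Itgav was at 90.7, 123, 165, 181, 219.7 and 235 CPM. Itgb5 was at 37.4, 25, 17.2, 11, 8.49 and 6.01 CPM in the same classes. Itgam was at 141, 127, 103, 90.5, 73.2 and 54.7 CPM. Each of the 3 genes thus changed in 1 direction over all 6 classes of the control library, although several neighbouring classes from 2 UMIs upward overlapped within counting error. Of the mutant cells, the 5 to 9 class held 13 cells and the 10 or more class 7 cells. There Itgav was at 149.8 CPM in cells with none and at 377 CPM (304 to 462) in the 7 cells, and Itgb5 at 93.3 CPM and 8.20 CPM (0.993 to 29.6).

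**Figure D2:**
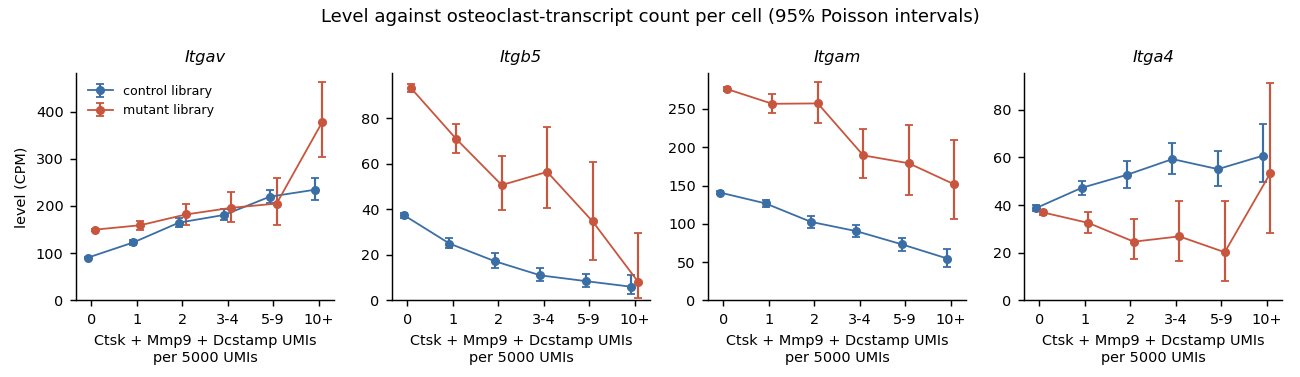
Levels in CPM against the number of OC-transcript UMIs per cell at 5000 UMIs (0, 1, 2, 3 to 4, 5 to 9, 10 or more) for both libraries, with 95% exact Poisson intervals. In the control library Itgav rises from 90.7 to 235 CPM and Itgb5 falls from 37.4 to 6.01 CPM; the last mutant class is 7 cells.

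The αv and β5 transcripts were next set against each other, a ratio that does not depend on how libraries are scaled. Control free cells held 2.43 (2.34 to 2.51) Itgav UMIs per Itgb5 UMI, low cells 5.77 (5.30 to 6.29) and high cells 21.7 (17.9 to 26.7). Mutant free cells held 1.61 (1.57 to 1.65), low cells 2.43 (2.20 to 2.70) and high cells 5.52 (4.14 to 7.47). The ratio in mutant high cells thus lay within the counting interval of that in control low cells. Itgb1 was the most counted β subunit of those that can pair with αv. Against Itgb1, Itgav went from 0.358 to 1.06 UMIs per UMI in the control library and from 0.405 to 0.863 in the mutant library. The 2 libraries were thus closer in this pair. Among the UMIs of Itgb1, Itgb3 and Itgb5, β5 held 11.9% (11.6% to 12.2%) over all control cells and 19.9% (19.5% to 20.2%) over all mutant cells, a difference of 7.94 percentage points (7.50 to 8.38). Along the states it went from 12.9% to 9.23% and 4.65% in the control library and from 20.1% to 16.1% and 13.5% in the mutant library. Cells that held an Itgav UMI at 5000 UMIs also held an Itgb5 UMI in 13.5% of control cells, against 15.6% of cells without Itgav; in the mutant library the shares were 36.4% and 32.2%.

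**Figure D3:**
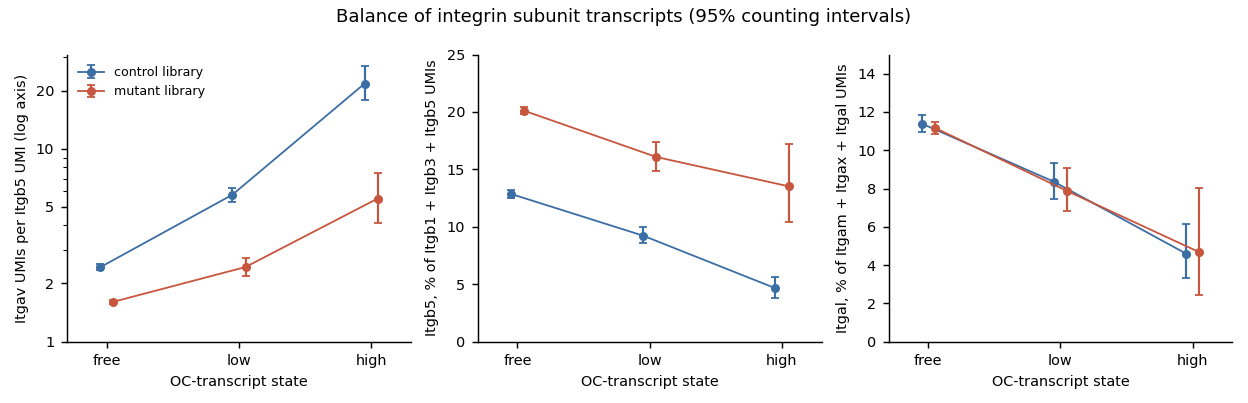
Balance of subunit UMIs in free, low and high cells of both libraries, with 95% intervals for counting error. The first panel gives Itgav UMIs per Itgb5 UMI (log axis). The other panels give percent shares, Itgb5 of the Itgb1, Itgb3 and Itgb5 UMIs and Itgal of the Itgam, Itgax and Itgal UMIs. Itgav per Itgb5 goes from 2.43 to 21.7 in the control library and from 1.61 to 5.52 in the mutant library.

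Itgb1, the common β1 subunit of fibronectin, collagen and laminin receptors, differed less along the transition. It was at 253 CPM in free, 227 CPM in low and 192 CPM in high control cells, and at 370.0, 349 and 268 CPM in mutant cells. The log2 ratio of high over free cells was -0.40 (-0.47 to -0.34) and -0.46 (-0.62 to -0.31), below the 1.5-fold threshold in both libraries, and the 2 ratios differed by -0.06 (-0.22 to 0.10).

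Among the leukocyte integrins, Itgb2, the β2 chain without which αM, αL and αX do not reach the surface, was at 257, 229 and 185 CPM in free, low and high control cells and at 454, 440.4 and 384 CPM in mutant cells. Its log2 ratio of high over free cells was -0.47 (-0.54 to -0.41) in the control library and -0.24 (-0.37 to -0.11) in the mutant library. Neither passed 1.5-fold. Itgam, which encodes αM (CD11b), the macrophage complement receptor subunit, went from 141 to 121 and 78.9 CPM in control cells and from 276 to 257 and 179.8 CPM in mutant cells. Its log2 ratios of -0.84 (-0.94 to -0.74) and -0.62 (-0.81 to -0.44) passed the threshold downward, in the mutant library in 5 of 12 alternative settings. Itgal, which encodes αL of the ICAM receptor LFA-1, went from 18.3 to 11.2 and 3.83 CPM in control cells and from 35.3 to 22.6 and 8.99 CPM in mutant cells. Its log2 ratio was -2.26 (-2.73 to -1.82) and -1.97 (-2.93 to -1.17), with 12 UMIs in the mutant high state. The mutant value was -0.93 with equal weight per cell, -0.99 without thinning and -1.20 with a high state at 2 or more UMIs, and with Acp5 added to the state genes it was -0.57 and no longer passed the threshold. In the control library it ranged from -3.92 to -1.47. Itgax, which encodes αX (CD11c) of dendritic cells and some macrophages, had 7 UMIs in control and 5 UMIs in mutant high cells, too few to give a direction. Split by single genes, its direction varied. Control cells with a Ctsk, Mmp9 or Dcstamp UMI held 1.55, 0.840 and 3.75 CPM, against 1.40, 1.51 and 1.30 CPM without. Mutant cells with it held 5.95, 2.37 and 21.6 CPM (14.0 to 31.9), against 4.77, 4.87 and 4.69 CPM without.

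Of the UMIs of Itgam, Itgax and Itgal, Itgam held 88.3% in control and 87.5% in mutant cells, a difference of -0.82 percentage points (-1.33 to -0.30) that turned to 0.18 with equal weight per cell. Itgax held 0.951% (0.834% to 1.08%) of them in the control library against 1.55% (1.44% to 1.68%) in the mutant library, so this small share was higher in mutant cells beyond counting error. Itgal held 11.4% of these UMIs in free and 4.59% (3.34% to 6.14%) in high control cells, and 11.2% and 4.67% (2.44% to 8.01%) in mutant cells. Cells of other types carried these genes at their own levels. In the neutrophil gate Itgal was at 68.5 CPM (36.5 to 117) in 19 control cells and at 67.7 CPM (53.5 to 84.4) in 89 mutant cells, and Itgam at 163 and 317 CPM. In the gate for MHC class II genes, 5 control and 35 mutant cells, Itgax was at 89.0 CPM (35.8 to 183) and 68.9 CPM (45.4 to 100).

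Itga4 encodes α4, the VCAM1 and fibronectin receptor chain of leukocytes. It was at 38.7 CPM (37.6 to 39.8) in free, 48.5 CPM (45.9 to 51.2) in low and 57.9 CPM (53.6 to 62.6) in high control cells. Mutant cells held 36.9 CPM (35.8 to 38.0), 31.1 CPM (27.3 to 35.2) and 29.97 CPM (21.4 to 40.8). The libraries therefore began at nearly the same level and parted along the states. In the 7 mutant cells with 10 or more OC-transcript UMIs, however, Itga4 was at 53.3 CPM (28.4 to 91.1). Mutant cells with a Ctsk, Mmp9 or Dcstamp UMI held 30.3, 30.8 and 42.3 CPM, against 36.9, 36.6 and 36.4 CPM without. α4 was the only member at 5 CPM or more whose log2 ratio of high over free cells differed in sign between the libraries. It was 0.58 (0.46 to 0.70) in the control library and -0.30 (-0.79 to 0.15) in the mutant library. The control value was 1.496-fold, just under the threshold, which it passed in 6 of 12 alternative settings. The difference of the 2 log2 ratios was -0.88 (-1.35 to -0.42), and 40 UMIs stood behind the mutant high state. Itga6 encodes α6, a laminin receptor chain. It was at 61.7, 59.7 and 45.6 CPM in free, low and high control cells and at 75.9, 46.4 and 38.2 CPM in mutant cells, with log2 ratios of high over free of -0.44 (-0.57 to -0.31) and -0.99 (-1.42 to -0.59).

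Of the 8 members whose mean over high and free control cells reached 5 CPM, Itgav was at least 1.5-fold higher and Itgb5, Itgam and Itgal at least 1.5-fold lower. Among all 8503 genes at that level in this comparison 7.3% were higher and 10.6% were lower. Among mutant cells 1 of 8 members was higher, Itgav, and 4 were lower, Itgb5, Itgam, Itgal and Itga6, against 7.51% higher and 7.03% lower of 8723 genes. The median log2 ratio of the 8 members was -0.45 in the control library and -0.54 in the mutant library, beside 0.06 and 0.05 over all genes at that level. The macrophage marker list, 6 genes, was also lower, from a summed 1059 CPM in free to 669 CPM in high control cells and from 1781 to 1221 CPM in mutant cells, with all 6 genes counted in each state, and its part in these values was not tested. The cycling gate held 154 of the 364 control high cells and 21 of the 44 mutant high cells. Outside that gate Itgav was at 91.7 CPM in free and 205 CPM in high control cells, and at 152 and 214 CPM in mutant cells. Inside it, Itgav was at 89.3 and 201 CPM in control cells and at 146 and 248 CPM in mutant cells. The mutant rise outside the gate, a log2 ratio of 0.49, did not pass 1.5-fold. Among mutant cells inside the gate, low cells were at 135 CPM (122 to 150.2), within counting error of the free cells.

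The second question was how the libraries differed as a whole. Over all cells Itgb5, Itgal, Itgam, Itgb2 and Itgb1 were at least 1.5-fold higher in the mutant library, 5 of the 8 members whose mean reached 5 CPM, and no member was lower. Beside them the summed macrophage markers were 1003 CPM in the control and 1769.5 CPM in the mutant library, with all 6 genes counted in both. Of these Cd14 was lower in the mutant library, at 103 and 92.4 CPM. Csf1r, Adgre1, Cd68, Fcgr1 and Mertk were higher, Adgre1 at 147 and 534 CPM and Fcgr1 at 26.8 and 135 CPM. The 4 neutrophil markers summed to 264 and 1981.5 CPM and the 4 class II markers to 28.7 and 116 CPM. Without the cells in the neutrophil, stromal and class II gates the same 5 members passed the threshold, while the part of the macrophage markers was not tested. Among all 8650 genes at that level 13.1% were higher and 5.94% were lower. With totals that leave out mitochondrial and ribosomal protein genes the split over all genes was 963 higher and 806 lower in place of 1130 and 514, with the median log2 ratio of all genes at -0.05 in place of 0.05. The median of the 8 members was 0.73, and 90% of all genes lay between -0.63 and 1.09.

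The largest of these differences was that of Itgb5, which went from 33.1 CPM (32.3 to 34.0) in control cells to 91.3 CPM (89.7 to 93) in mutant cells. Its log2 ratio was 1.46 (1.42 to 1.51) or 2.76-fold. Itgal was at 16.2 and 34.4 CPM, with a log2 ratio of 1.08 (1.01 to 1.15). Itgam, at 133 and 275 CPM, had a log2 ratio of 1.04 (1.02 to 1.07). The intervals of αM and αL thus overlapped. Itgb2 followed at 247 and 453 CPM, with 0.87 (0.85 to 0.89), so their shared β chain was higher by a smaller ratio. Itgb1, at 245 and 368 CPM, had a log2 ratio of 0.59 (0.57 to 0.61) that stood at the threshold and passed it in 4 of 9 alternative settings. Itgav, at 105 and 152 CPM, had a log2 ratio of 0.53 (0.50 to 0.56), just below the threshold, which it passed in 1 of the 9. Itga6 and Itga4 had log2 ratios of 0.29 (0.25 to 0.33) and -0.19 (-0.24 to -0.13). Itgax, at 1.44 and 4.88 CPM, was below the level floor, with a log2 ratio of 1.76 (1.55 to 1.99).

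**Figure D4:**
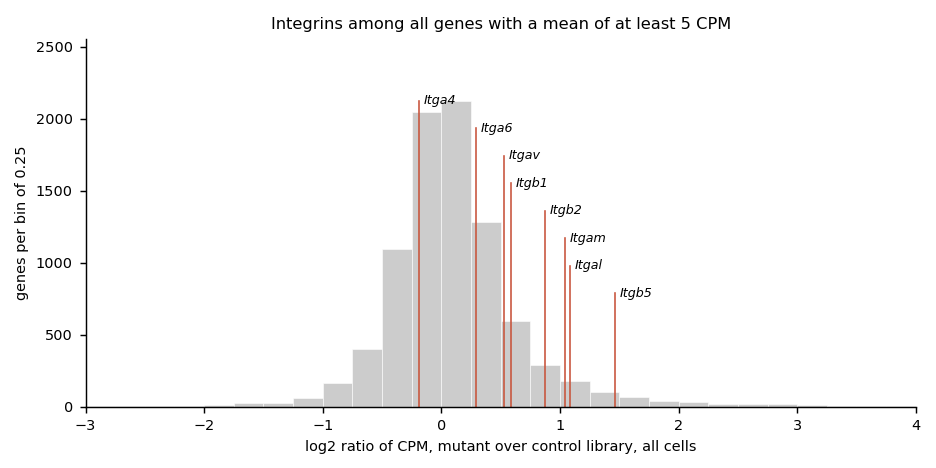
Histogram of the log2 ratio of mutant over control levels for the 8650 genes at or above a mean of 5 CPM, with the members marked by lines whose height carries no value; the few genes beyond -3 and 4 are not drawn. Itgb5 at 1.46 lies above 95% of the genes (1.09), while Itga4 at -0.19 and Itga6 at 0.29 lie near the middle.

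Because the libraries held different shares of OC-transcript cells, the ratio was also taken within each state. The states were not alike between the libraries. Control and mutant low cells held Ctsk at 70.9 and 111 CPM and Mmp9 at 100 and 23.6 CPM. Their summed stromal markers were at 0.037 and 139 CPM, and their class II markers at 34.9 and 296 CPM. High cells held Ctsk at 558 and 703 CPM and Mmp9 at 470 and 337 CPM. The part of these differences in the ratios was not tested. In free cells the log2 ratio of mutant over control was 1.32 (1.27 to 1.37) for Itgb5, 0.97 (0.94 to 1.00) for Itgam, 0.95 (0.88 to 1.02) for Itgal and 0.82 (0.80 to 0.84) for Itgb2. These differences were thus nearly as large among free cells as over all cells, although the free cells of the libraries were not matched in OC transcripts. In high cells Itgb5 had its largest log2 ratio, 2.17 (1.67 to 2.65), with Itgam at 1.19 (0.98 to 1.40) and Itgb2 at 1.05 (0.91 to 1.19). Itgav went the other way, with 0.72 (0.69 to 0.76) in free cells, 0.30 (0.20 to 0.39) in low cells and 0.19 (0.01 to 0.36) in high cells. The libraries thus differed in αv among free cells and came close to each other among high cells. Itga4 was at -0.07 (-0.13 to -0.01) in free, -0.64 (-0.85 to -0.45) in low and -0.95 (-1.45 to -0.49) in high cells.

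**Figure D5:**
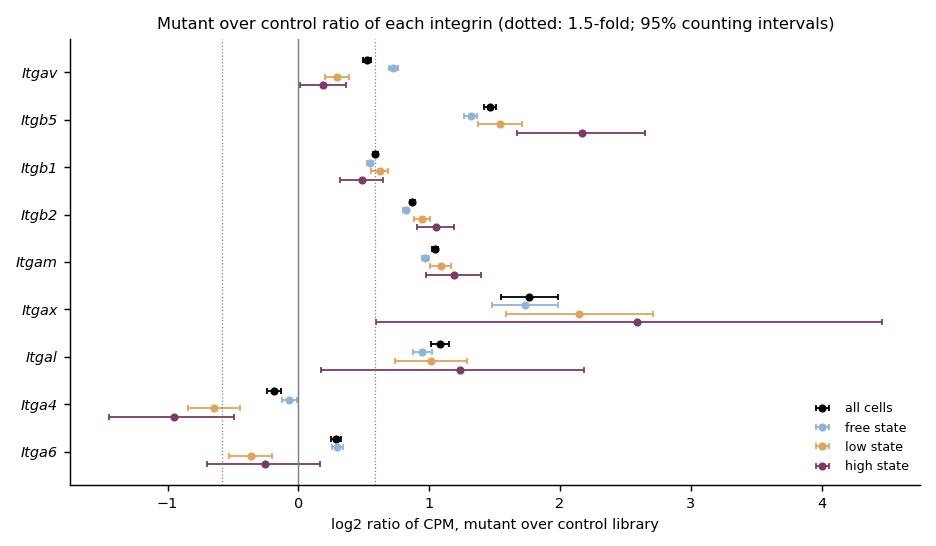
Log2 ratio of mutant over control level over all cells and within free, low and high cells for 9 members, with 95% intervals for counting error. Itgb3 is left out for its low counts. Itgb5 stays above 1 in each state, Itgav approaches 0 in high cells and Itga4 falls to -0.95.

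The mutant library also stood apart in interferon-stimulated genes, so the members were read in cells above and below the median of that list in each library. The list summed to 1754 CPM above and 567 CPM below the median in control cells and to 5783 and 3194 CPM in mutant cells, so no class of one library matched a class of the other, and the part of these genes in the difference between libraries was not tested. Itgam was at 144 CPM (141 to 146) above and 123 CPM (121 to 126) below the median in control cells and at 274 and 275 CPM in mutant cells. Itgb5 was at 86.7 and 95.7 CPM in mutant cells and at 39.7 and 26.8 CPM in control cells. Within the libraries the difference of Itgb5 between the classes thus had opposite signs. Itgav was at 91.1 CPM above and 119 CPM below the median in control cells and at 142 and 161 CPM in mutant cells.

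Of the 17 other integrin genes of the mouse, 15 were below 5 CPM on average. Itga5, the α subunit of the classical fibronectin receptor, was at 59.1 CPM in the control and 109 CPM in the mutant library, a log2 ratio of 0.88, and fell in the high state of both libraries, by 0.77 and 0.67 on the log2 scale. Itgb7, a β partner of α4 in gut-homing leukocytes, was at 57.1 and 33.3 CPM, a log2 ratio of -0.78. It was at 54.3 CPM in free and 66.6 CPM in high control cells and at 31.6 and 48.7 CPM in mutant cells. Of the pair α4β7, the β chain was thus past the threshold downward in the mutant library and the α chain, with its log2 ratio of -0.19, was not.

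Of 63 listed integrin ligands and activating or adaptor proteins, 45 reached a mean of 5 CPM, of which 14 were at least 1.5-fold higher in the mutant library, 4 were lower and 27 were neither, beside the 13.1% higher and 5.94% lower of all genes. The median log2 ratio of the 45 was 0.34. Among the 11 ligands at that level 5 were higher and 2 lower, against the same 13.1% and 5.94% of all genes. Spp1, which encodes osteopontin, a ligand of αvβ3 in bone, was at 1404 CPM in the control and 277 CPM in the mutant library, a log2 ratio of -2.34. Lamc1, a laminin chain, had -0.61 and Icam2, a ligand of LFA-1, -0.29. The highest were Thbs1, a matrix glycoprotein bound by αv integrins, with 2.01, C3, whose fragment iC3b binds αMβ2, with 1.31, and Col18a1, a basement membrane collagen, with 1.18. Along the transition Spp1 moved in opposite directions, from 1570.5 to 588 CPM in control cells and from 266 to 415 CPM in mutant cells.

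Among the 34 activators and adaptors at that level 9 were higher, against 13.1% of all genes, and 2 were lower, a share close to the 5.94% of all genes. Src, the kinase that acts below αvβ3 in the OC sealing zone, was at 15.7 CPM in the control and 7.90 CPM in the mutant library, with a log2 ratio of -0.99. In both libraries it rose in the high state, from 10.6 to 53.1 CPM in control cells and from 6.97 to 49.5 CPM in mutant cells. Levels in high cells were thus close, while in the mutant library the free cells held less and the high cells were fewer. The part of either in the difference between libraries was not tested. Vcl, which encodes vinculin of focal adhesions, had a log2 ratio of -0.60 and Rasgrp4, an exchange factor for Ras proteins, -0.37. The highest were Fgr, a myeloid Src family kinase, with 2.01, Tgfbi, a secreted matrix protein bound by integrins, with 1.33, and Ptk2b, the adhesion kinase PYK2, with 1.30. Of all 45, the high state held 2 higher and 14 lower in the control library, against 7.3% and 10.6% of all genes. In the mutant library it held 2 higher and 8 lower, against 7.51% and 7.03% of all genes. The counts of higher genes were thus not above the share of all genes.

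The members were last compared by their pattern over 12 groups of cells, the 3 states inside and outside the cycling gate in each library. These groups share libraries and depth, and the correlations describe them without a test. Itgb5 and Itgam had the highest correlation between the members compared, with a Pearson r of 0.98, while Itgb2 and Itga4 had the lowest, -0.86. Itgal, at 16.2 CPM in the control and 34.4 CPM in the mutant library, was not among them, nor were Itgax and Itgb3. Among 5178 genes the patterns most like Itgav were those of Spi1 (r = 0.945), which encodes PU.1, and Dock5 (0.940), an exchange factor for Rac in OCs. For Itgb5 they were Zdhhc18 (0.994) and Cybb (0.992), a subunit of the phagocyte oxidase, and for Itgam Gm21188 (0.997) and Grn (0.991). For Itgb1 they were Itga5 (0.981) and Serinc3 (0.980), for Itgb2 Epsti1 (0.995) and Pla2g7 (0.994), for Itga4 Ctbp2 (0.946) and Hdac2 (0.946), and for Itga6 Plxnb2 (0.884) and Mrpl33 (0.869).

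On GRCm39 all 10 genes lie on the plus strand. Itgav (ENSMUSG00000027087) spans chromosome 2 from 83554403 to 83637260, Itgb5 (ENSMUSG00000022817) chromosome 16 from 33649988 to 33771137 and Itgb3 (ENSMUSG00000020689) chromosome 11 from 104498826 to 104561302. The β2 partners lie together on chromosome 7, Itgal (ENSMUSG00000030830) from 126895432 to 126934320, Itgam (ENSMUSG00000030786) from 127661808 to 127717753 and Itgax (ENSMUSG00000030789) from 127728668 to 127749829. Itgav overlaps Gm13684 and Itga4 overlaps Cerkl on the other strand, and Itgam overlaps Gm49368 on the same strand. These neighbours had 72, 69 and 329 UMIs in the control and 83, 78 and 459 UMIs in the mutant library, small beside the 4815 to 36115 UMIs of the members they overlap, and how reads in the overlaps were assigned was not given in the sources used here.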

How the data were processed

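The deposited matrices are raw UMI counts for each gene in each barcode. The file headers name Cell Ranger 6.1.0 and the labels GRCm39 for the processing by the authors, and no doublet filter is stated. Whether the deposited counts precede the aggregation step that the methods name was not stated. The members and gene lists were chosen with earlier results of these data known.

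Cells with at least 500 genes and at most 10% mitochondrial UMIs were kept, doublets included. CPM is the summed UMIs of a gene per 1e6 summed UMIs, with an exact Poisson interval, and log2 ratios an exact interval conditional on the sum of both counts. Shares have Clopper-Pearson intervals, and a count of 0 was read as up to 3 counts. A gene was called at 1.5-fold or more with an interval excluding 0 and a mean of at least 5 CPM. The depth was 164004706 control and 131800059 mutant UMIs over 6455 and 5865 barcodes. Doublets, scored against 2 simulated doublets per barcode among 50 neighbours, were removed only as an alternative (333 and 275 barcodes, 0.8% per 1000 barcodes). The cycling gate was 3 or more UMIs over Mki67, Top2a, Aurka and Cdk1 at 5000 UMIs; the neutrophil, stromal and class II gates were 1%, 0.1% (with at least 3 UMIs) and 0.5% of a cell's UMIs on their markers.

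Named beside the members were the 3 highest and 3 lowest log2 ratios of each list and the 2 genes of most similar pattern, by Pearson r of log2(CPM + 1), for members of at least 20 CPM. Itgal was not in the comparison of patterns. Of 32544 identifiers 31977 matched GENCODE M39, the source of coordinates. Scripts were tested on simulated data and used Python 3.11.15, numpy 2.4.6, scipy 1.17.1, pandas 2.3.3, scikit-learn 1.9.0 and, for TMM factors, edgeR 4.0.16. Alternatives changed the scaling, cell filter, level floor, fold, doublets, gates and state definition.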

Additional observations from a re-analysis of the deposited data

Results flagged for a closer look

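Itga4 is given here because its log2 ratio along the states had opposite signs in the 2 libraries, a difference that was not tested across samples since each genotype has 1 library. The log2 ratio of high over free cells was 0.58 in the control library and -0.30 in the mutant library, where the counting interval (-0.79 to 0.15) includes 0. The sign was kept in 12 of 12 alternative settings in each library. In the mutant library the ratio ranged from -0.44 to -0.12, and none of these values passed the threshold. The 7 mutant cells with 10 or more OC-transcript UMIs went the other way, at 53.3 CPM (28.4 to 91.1) against 36.9 CPM in free cells.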

How the results depend on the processing

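Of 29 log2 ratios of single members, 26 kept their sign in every alternative run, and 3 did not, those of Itgax along the states in both libraries and of Itgb3 along the states in the control library. Under a 2-fold threshold the members higher in the mutant library went from 5 to 3, the listed ligands and adaptors from 14 to 8 higher and from 4 to 1 lower, and the mutant high state from 1 to 0 higher and from 4 to 2 lower. A mean of at least 20 CPM also left 1 listed gene lower. In the control library a second member, Itga4, was higher in the high state, 2 in place of 1, with totals without mitochondrial and ribosomal protein genes, at most 5% mitochondrial UMIs, doublets removed, outside the cycling gate, with states set at 10000 UMIs and with Acp5 added to the state genes. In the mutant library no member was higher, 0 in place of 1, with equal weight per cell, outside the cycling gate, with a high state at 2 or more UMIs and with Acp5 added, and with Acp5 added 2 were lower. The causes were not tested. With states set at 10000 UMIs or without thinning the count stayed at 1, but the member was Itgax in place of Itgav. The Itgam share difference of -0.82 points reversed to 0.18 with equal weight per cell, and the Itgb5 share difference of 7.94 points was 6.90 outside the cycling gate. Over all genes, 1130 higher and 514 lower became 510 and 140 at 2-fold, 659 and 293 at 20 CPM, 926 and 718 with median-of-ratios size factors and 963 and 806 without mitochondrial and ribosomal protein genes, where the median log2 ratio of all genes moved from 0.05 to -0.05. Of 112 alternatives for counts and shares, 93 stayed within 1.5 times the reported count or within the interval of the share.

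No paired analysis was possible because each genotype has 1 library and the labels give no replicate numbers. The number of cells limits the mutant high state, where 44 cells gave 12 UMIs of Itgal, 5 of Itgax and none of Itgb3.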
